A study of Mus musculus with 38 samples.

Results

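Intracisternal A-particle (IAP) elements are endogenous retroviruses of rodents. They were taken from the transposable element (TE) tables of the series as every copy of the ERVK family group whose element name starts with IAP. This rule found 29886 of 3793386 annotated TE copies, in 25 of the 1241 families of the tables. Of the 25 families, 10 are internal entries, which cover the body of the provirus with its coding regions, and they hold 14818 copies. The other 15 are LTR entries, the long terminal repeats that flank a provirus and carry its promoter, and they hold 15068 copies. The rule used names only and no measured value.

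IAP elements belong to the ERVK class of LTR retrotransposons, which move through an RNA copy and reverse transcription. The IAPEz proviruses and their LTRs (IAPLTR1, IAPLTR1a and IAPLTR2) include young copies that can still transpose and that cause new insertions in laboratory mice. In embryonic stem cells they are kept silent by KRAB zinc finger proteins, TRIM28 and SETDB1, which deposit H3K9me3, and by DNA methylation. IAPE elements are a related branch that carries an envelope gene, and IAPEY elements were first described from copies amplified on the mouse Y chromosome. The libraries described here show antibody signal over these copies. That signal is a proxy for contact with the nuclear lamina, the sheet of lamin filaments under the inner nuclear membrane.

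The series mapped chromatin at the nuclear periphery by CUT&RUN, in which a nuclease bound to an antibody releases the DNA near the antibody's target. One antibody recognised LAP2B, which sits in the inner nuclear membrane, another the lamin LMNB1, and a secondary antibody alone served as the background control (IGG). Cells were naive mouse embryonic stem cells (mES cells), grown in 2i and LIF, and epiblast-like cells (EpiLCs), made from them in FGF and Activin A. LAP2B was mapped at both stages in 4 genotypes, namely wild type (WT), LBR knockout (LBRKO, without the lamin B receptor), lamin triple knockout (TKO, without lamins A/C, B1 and B2) and lamin and LBR quadruple knockout (QKO). The LMNB1 and IGG libraries are all from WT cells, so no mutant has a background library of its own. The study did not rely on LAP2B as a measure of lamina contact in EpiLCs. In WT EpiLCs it found LAP2B signal both inside and outside lamina-associated regions, judged against LMNB1. EpiLC values below are therefore LAP2B signal and cannot be read as lamina contact alone. That makes 12 groups with 3 libraries each, 36 in all, while a pair of H3K9me3 samples was not analysed here. The WT and TKO lines came from littermates. The LBRKO cells were made by CRISPR in the WT line, with no statement of which clone gave these libraries, and the QKO line by CRISPR in the TKO line, as a single surviving clone. Per the study's methods the lines were not karyotypically normal: the TKO line carried trisomy 8, with loss of the Y chromosome in part of the cells, and the WT line, though mostly of normal karyotype, held a population without the Y and another with trisomy 6 and 8 and without the Y. Nothing states that the 3 libraries of a group came from separate cultures, so p-values measure only the spread between them, which may be technical. The libraries are averages over many cells, and a lower level in every cell and a loss in some of the cells cannot be told apart.

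The deposited value of a copy is spike-in scaled coverage summed over the 1 kb bins that the copy touches, so it grows with the length of a copy, and levels of internal and LTR entries are compared here only as ratios to IGG or as changes between genotypes. Because each bin is wider than an LTR, a copy shares bins with its neighbours: 56.1% of IAP LTR copies were listed next to an IAP internal entry, and 36.7% had the same values as a neighbouring row in every library. Reads recovered from the values, summed over TE copies, numbered 3.74e+07 to 1.31e+08 per library, and the median TE copy had 8 to 29 reads. For the 25 IAP families the median copy had between 6.0 and 28.3 reads in naive WT LAP2B. A single copy is therefore measured coarsely, and a family mean over many copies much better.

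Family means are given on the relative scale, that is, divided by the median of all 1241 family means in the same library, or on the spike-in scale as deposited. The relative scale shows how IAP families stood among TE families, not how much LAP2B signal there was in total. Changes are log2 differences of group means ± SE from a limma model over all 24 LAP2B libraries, with p-values adjusted by the Benjamini-Hochberg method over all 1241 families, and a family was called at an adjusted p under 0.05. An exact permutation test of 3 against 3 libraries cannot give a p under 0.1. All comparisons with WT at a stage share the same 3 WT libraries.

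In WT cells the IAPEz group stood lower among TE families with LAP2B and LMNB1 than with IGG. In naive WT cells IAPEz-int, the body of the IAPEz provirus and with 7601 copies the most frequent IAP entry, had relative LAP2B values of 2.05, 1.70 and 2.29, LMNB1 values of 1.46, 2.11 and 1.54, and IGG values of 2.63, 2.74 and 2.84. On this relative scale every IGG library was above every LAP2B and LMNB1 library. As deposited, without that division, its LMNB1 values of 0.769, 1.06 and 0.996 were above its IGG values of 0.337, 0.238 and 0.384. However, the spike-in factor holds an arbitrary constant that differs between antibodies, and the study names none for LMNB1 or IGG. Deposited levels of these antibodies can therefore not be compared. The study describes the IGG control as run with LAP2B, and names no control for LMNB1. Standing below or above IGG means here only a lower or higher level relative to the median family than with IGG. It does not show whether the signal was above or under the background. LAP2B over IGG was -0.45 ± 0.22 (SD, n = 3) on the log2 scale for IAPEz-int, which placed it at percentile 2.50 of all families, and LMNB1 over IGG was -0.70 ± 0.29, at percentile 1.45. Its relative level itself was above the median family with all 3 antibodies, IGG included. Of its 7601 copies, 2237 (29.4%) were among the 1% of TE copies with the highest IGG.

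The LTRs of these proviruses stood below IGG as well, IAPLTR1a_Mm as far as IAPEz-int. IAPLTR1a_Mm had LAP2B values of 1.04, 0.923 and 1.14 in naive WT cells against IGG values of 1.44, 1.40 and 1.46, and its LAP2B over IGG was -0.48 ± 0.15 (percentile 2.01). IAPLTR1_Mm was at -0.32 ± 0.15 (percentile 4.92), and IAPLTR2_Mm was at -0.13 ± 0.11. For IAPLTR1_Mm and IAPLTR1a_Mm, as for IAPEz-int, the LAP2B and IGG libraries did not overlap. The lowest IAP family was IAPEY3C_LTR at -0.54 ± 0.06 (percentile 1.45), but 1 copy with a relative value of 159 held 35.3% of that family's IGG signal.

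A smaller group of families stood above IGG. IAPEY4_LTR, with 94 copies the smallest LTR entry, had LMNB1 values of 2.28, 2.50 and 2.18 in naive WT cells against IGG values of 1.74, 1.65 and 1.61, with no overlap. Its LMNB1 over IGG was 0.48 ± 0.10, at percentile 98.5 of all families, and its LAP2B over IGG was 0.18 ± 0.05. IAPEY3_LTR stood at 0.18 ± 0.05 for LAP2B (percentile 84.1), IAP1-MM_LTR at 0.17 ± 0.02 and IAP1-MM_I at 0.13 ± 0.05. IAPEY4_I, the internal entry named like IAPEY4_LTR, was on the other side of IGG at -0.27 ± 0.12.

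Over the 25 families the median of LAP2B over IGG in naive WT cells was -0.10, with 17 of 25 below 0, beside a median of -0.00 and 50.1% below 0 over all families. With family medians in place of means the IAP median was -0.0078, that is, at IGG, while that of LMNB1 over IGG stayed at -0.19. The internal entries had a median of -0.13 (8 of 10 below 0) and the LTR entries one of -0.10 (9 of 15 below 0). ERVK families outside IAP had a median of 0.06, with 34.2% below 0, and L1 families also had one of 0.06. For LMNB1 the IAP median was -0.23, with all 10 internal entries and 9 of 15 LTR entries below 0, beside -0.01 over all families and 0.12 over L1 families. In WT EpiLCs the IAP medians were -0.07 for LAP2B (17 of 25 below 0) and -0.17 for LMNB1 (18 of 25 below 0). IAPEz-int and IAPEY4_LTR lay on the same sides of IGG there, at -0.58 ± 0.13 and 0.30 ± 0.09 for LMNB1.

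**Figure D1:**
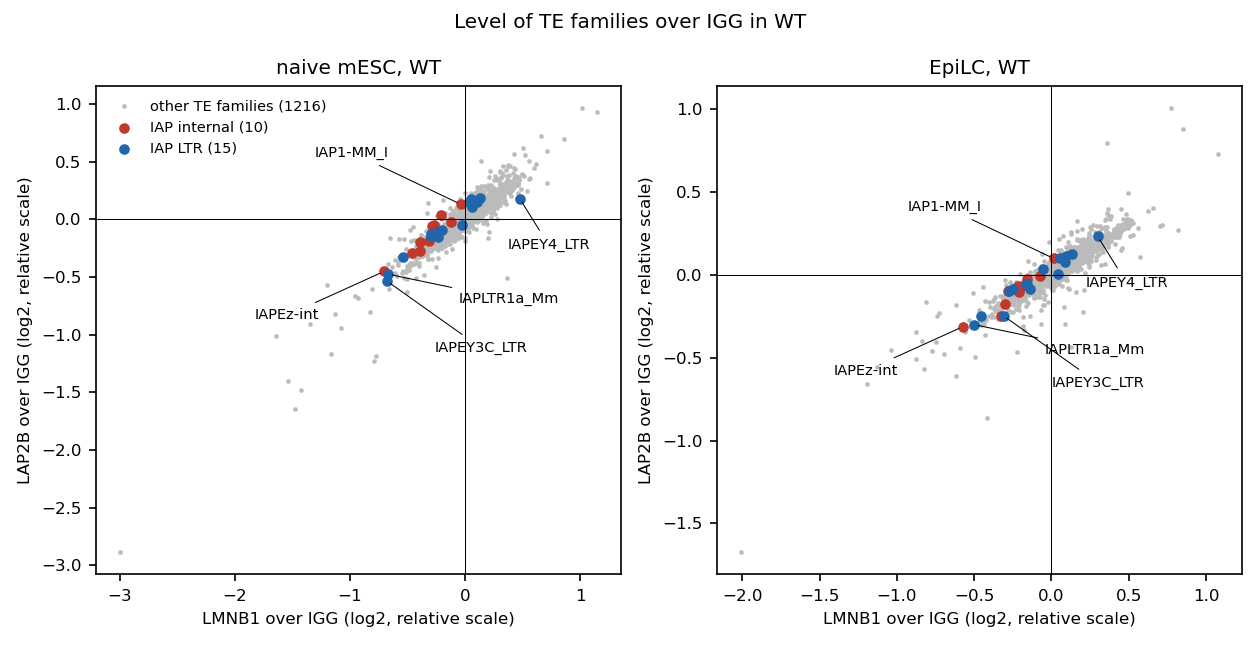
LMNB1 over IGG (x axis) and LAP2B over IGG (y axis) in WT naive mES cells and WT EpiLCs, as log2 ratios of relative family means, 1 point per family (means of 3 libraries, gray for the families that are not IAP, red for 10 IAP internal and blue for 15 IAP LTR entries). IAPEz-int and IAPLTR1a_Mm lie at the lower left of the cloud and IAPEY4_LTR at its right, with LMNB1 over IGG of 0.48 in naive cells.

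Copies of 1 family were far apart. The middle 80% of IAPEz-int copies spanned 0.679 to 4.28 in naive WT LAP2B around a median of 1.61, and IAPEY3-int copies spanned 0.267 to 2.70, a ratio of 10.1 that includes differences in copy length. For IAPLTR1_Mm, whose copies are short, the span was 0.606 to 1.84.

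When all TE copies were cut into 4 classes of equal size by their WT LMNB1 over IGG ratio in naive cells, from class 1 (lowest) to class 4 (highest), IAP copies were rare in class 4. It held 5.75% of IAP internal copies and 14.7% of IAP LTR copies, where an even spread would put equal shares in the 4 classes. Of IAPEz-int copies 1.08% lay in it, of IAPLTR1a_Mm copies 3.02% and of IAPLTR1_Mm copies 3.18%. By contrast it held 47.9% of IAPEY4_LTR copies, 30.9% of IAPEY3_LTR copies and 30.7% of IAPEY2_LTR copies. IAP internal copies were not concentrated at the other end either, since 51.5% of them, and 63.3% of IAPEz-int copies, lay in class 2. The ratio of a copy is noisier where it has fewer reads, and the effect of read number on these shares was not tested. In EpiLCs class 4 held 6.93% of internal copies, and again few IAPEz-int copies (1.59%) and many IAPEY4_LTR copies (38.3%).

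In LBRKO cells LAP2B was lower than in WT at every IAP family relative to other TEs, at both stages. The loss of LBR and other differences of the LBRKO line from the WT line cannot be told apart here. In naive LBRKO cells all 25 families fell (10 internal and 15 LTR entries), where 71.6% of all 1241 families were called, 41% lower and 30.5% higher. The IAP changes ran from -0.68 to -0.23 with a median of -0.43, beside a median of -0.03 over all families and -0.15 over the 260 other ERVK families, of which 63.1% fell and 13.5% rose. In 22 of the 25 families each LBRKO library was below each WT library. How many of all 1241 families were so separated was not counted, so this does not set IAP families apart. Divided by the median gene of each library instead, which puts the median change of all families at -0.36 in this comparison, the 25 families were lower too. On that scale 1075 of all 1241 families were called lower.

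The largest falls were in internal entries. IAPEY5_I had relative values of 1.22, 1.20 and 1.17 in naive WT and 0.627, 0.833 and 0.677 in LBRKO libraries, which do not overlap, a change of -0.68 ± 0.08 (limma, adjusted p = 3.71e-07). IAP1-MM_I went from 1.67, 1.60 and 1.58 to 1.00, 1.15 and 0.972, again without overlap (-0.59 ± 0.04, limma, adjusted p = 1.18e-09). IAPEY3-int, with 2022 copies the second most frequent internal entry, went from 1.25, 1.14 and 1.25 to 0.719, 0.907 and 0.754 (-0.56 ± 0.06, limma, adjusted p = 2.08e-07). Its LTR, IAPEY3_LTR, went from 1.30, 1.32 and 1.24 to 0.880, 0.968 and 0.904 (-0.45 ± 0.03, limma, adjusted p = 5.64e-10), and in both the lowest WT library stood clear of the highest LBRKO library.

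The IAPEz proviruses fell too, with changes nearer to 0, although the difference between families was not tested. IAPEz-int had LBRKO values of 1.31, 1.78 and 1.42 against 2.05, 1.70 and 2.29 in WT, a change of -0.40 ± 0.10 (limma, adjusted p = 0.00134), and LBRKO replicate 2 lay above WT replicate 2. The 3 LTRs of this group changed by -0.32 ± 0.08 (IAPLTR1a_Mm, limma, adjusted p = 0.00142), -0.26 ± 0.07 (IAPLTR2_Mm, limma, adjusted p = 0.00218) and -0.23 ± 0.07 (IAPLTR1_Mm, limma, adjusted p = 0.00731). Libraries overlapped for IAPLTR1_Mm and IAPLTR1a_Mm, through the same pair of replicates, and not for IAPLTR2_Mm.

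In LBRKO EpiLCs all 25 families fell as well, where 47.1% of all families were called and 28.8% were called lower. In each of the 25 families the LBRKO libraries were all below the WT libraries. This separation was not counted over all families, so it does not set IAP families apart. Changes ran from -0.50 to -0.23 with a median of -0.33, beside -0.02 over all families and -0.08 over the other ERVK families, of which 50% fell. IAPEz-int went from 2.24, 2.20 and 2.71 to 1.71, 1.72 and 1.84 (-0.41 ± 0.10, limma, adjusted p = 0.00213). IAPEY5_I went from 1.14, 1.09 and 1.33 to 0.762, 0.798 and 0.867 (-0.50 ± 0.08, limma, adjusted p = 4.83e-05), and IAPLTR3-int from 0.755, 0.755 and 0.819 to 0.528, 0.529 and 0.557 (-0.46 ± 0.07, limma, adjusted p = 2.21e-05). The latter 2 were the largest falls at this stage. IAPLTR1a_Mm fell by 0.30 ± 0.08, IAPLTR2_Mm by 0.25 ± 0.07 and IAPLTR1_Mm by 0.24 ± 0.07, while IAPEY3-int fell by 0.42 ± 0.06 and IAPEY3_LTR by 0.29 ± 0.03.

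The spike-in scale multiplies RPKM, already divided by a library's own reads, by a factor that falls with its yeast reads. It is therefore not a direct measure of total signal. On this scale 14 of 25 families fell in naive LBRKO cells (9 internal and 5 LTR entries), where 9.91% of all families were called and 9.51% were called lower. The IAP median was -0.61, beside -0.19 over all families. In all 25 IAP families each LBRKO library was below each WT library. Such separation was not counted over all families and does not set IAP families apart. IAPEY5_I fell by 0.86 ± 0.21 (limma, adjusted p = 0.00494), while IAPEz-int stood at -0.57 ± 0.22 (limma, adjusted p = 0.074). The count of 14 was lower when the factor was applied to recovered reads. It also rested on single libraries: it was 0 without WT replicate 2, 0 without LBRKO replicate 1 and 1 without LBRKO replicate 2. In LBRKO EpiLCs limma called 0 of 25 families on this scale (0.0806% of all families were called), 9 of 25 had an unadjusted p under 0.05, and the IAP median was -0.36 beside -0.04 over all families. edgeR on recovered reads scales each library by its own reads, without the spike-in, and so does not bear on these spike-in counts. It called 25 of 25 in LBRKO cells at both stages, and its calls over all families are not given here.

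Signal on the Y chromosome and on chromosomes 6 and 8 differed between genotypes. The summed LAP2B signal of 8 Y-linked genes, divided by the median gene, was 30.4 to 35.7 in naive LBRKO libraries against 59.6 to 69.8 in naive WT, and 32.8 to 35.1 against 46.8 to 56.8 in EpiLCs. The median gene of chromosome 6 stood at 1.45 to 1.50 in naive LBRKO against 1.15 to 1.23 in naive WT, and at 1.41 to 1.43 against 1.07 to 1.12 in EpiLCs. It lay below WT in the other mutants, at 0.95 to 0.99 in naive TKO, 0.82 to 0.84 in naive QKO, 0.95 to 0.97 in TKO EpiLCs and 0.88 to 0.91 in QKO EpiLCs. The Y-linked sum was also below WT in TKO EpiLCs, at 41.7 to 45.2, and overlapped WT in naive TKO cells and in QKO cells at both stages. The median gene of chromosome 8 stood at 1.77 to 1.80 in naive WT, 1.87 to 1.975 in naive TKO and 1.88 to 1.99 in naive QKO. In EpiLCs it stood at 1.78 to 1.89 in WT, 1.98 to 2.01 in TKO and 2.02 to 2.07 in QKO. For chromosome 8 the LBRKO libraries overlapped WT, at 1.77 to 1.93 in naive cells and 1.76 to 1.82 in EpiLCs. Copies of IAP families on these chromosomes could not be set apart, as copies carry no coordinates. The part of these differences in the IAP results was not tested.

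**Figure D2:**
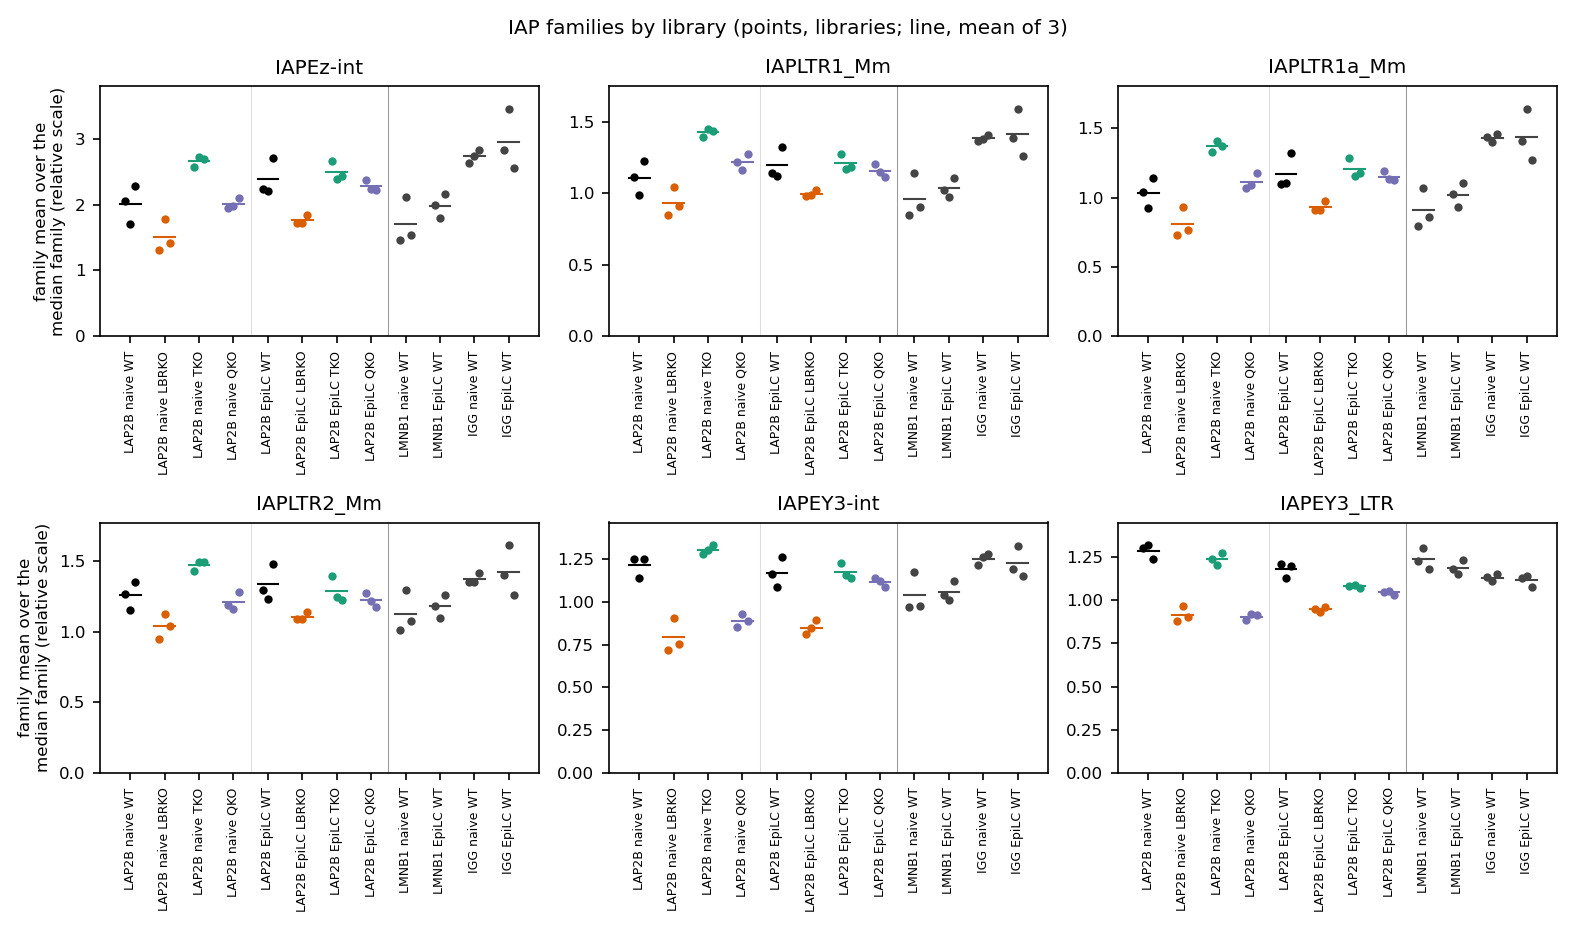
Relative value (family mean over the median family of the library, linear axes from 0) of 6 IAP families in all 36 libraries, 1 point per library and a line at the mean of 3, by antibody, stage and genotype. LBRKO libraries lie under their WT libraries in the LAP2B groups except where replicate 2 overlaps in naive cells for IAPEz-int, IAPLTR1_Mm and IAPLTR1a_Mm (IAPEz-int 1.78 in LBRKO against 1.70 in WT).

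The TKO line showed the opposite sign in naive cells on the relative scale. In naive TKO cells 15 of 25 IAP families rose relative to other TEs (6 internal and 9 LTR entries) and 0 fell, where 53.1% of all families were called and 32.6% were called higher. But divided by the median gene, which puts the median change of all families at -0.46, 23 of 25 were lower, as were 1177 of all 1241. The changes ran from -0.05 to 0.40 with a median of 0.17, beside 0.02 over all families and 0.08 over other ERVK families, of which 49.2% rose. In 21 of 25 families each TKO library was above each WT library. As this was not counted over all families, it does not set IAP families apart. When libraries were divided by the mean copy 4 were higher and 2 lower, beside 151 higher and 645 lower of all 1241 families. Without WT replicate 2 the count was 9.

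The largest rises were in IAPEz-int and IAPLTR1a_Mm. IAPEz-int had values of 2.58, 2.72 and 2.70 in TKO against 2.05, 1.70 and 2.29 in WT, all 3 above WT (0.40 ± 0.10, limma, adjusted p = 0.00236). IAPLTR1a_Mm went from 1.04, 0.923 and 1.14 to 1.33, 1.41 and 1.38 (0.38 ± 0.08, limma, adjusted p = 0.000606) and IAPLTR1_Mm from 1.12, 0.989 and 1.22 to 1.39, 1.45 and 1.44 (0.34 ± 0.07, limma, adjusted p = 0.000645). IAPLTR2_Mm, at 1.43, 1.49 and 1.49 against 1.27, 1.16 and 1.35, rose less than IAPA_MM-int, IAPEY4_I and IAPEY5_I (0.21 ± 0.07, limma, adjusted p = 0.0122, beside 0.32, 0.26 and 0.24). Divided by the median gene IAPEz-int stood at -0.11, IAPLTR1a_Mm at -0.10, IAPLTR1_Mm at -0.15 and IAPLTR2_Mm at -0.28. The IAPEY3 entries, by contrast, were not called in this comparison on the relative scale: IAPEY3-int had TKO values of 1.28, 1.31 and 1.33 (0.10 ± 0.06, limma, adjusted p = 0.191) and IAPEY3_LTR had 1.24, 1.20 and 1.27 (-0.05 ± 0.03, limma, adjusted p = 0.184), the latter overlapping WT.

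On the spike-in scale, all 25 families fell in naive TKO cells, but so did nearly all TEs (99.3% of families were called and 99.2% were called lower). The IAP median was -0.87 beside -1.01 over all families, and IAPEz-int fell by 0.70 ± 0.22 (limma, adjusted p = 0.00155).

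In TKO EpiLCs 3 of 25 families were called on the relative scale, all LTR entries of IAPEY families and all lower, where 31.9% of all families were called and 17.9% were called lower. IAPEY4_LTR went from 2.17, 1.93 and 2.22 to 1.78, 1.83 and 1.76 (-0.22 ± 0.07, limma, adjusted p = 0.0188), IAPEY5_LTR from 0.930, 0.912 and 0.984 to 0.819, 0.866 and 0.843 (-0.14 ± 0.04, limma, adjusted p = 0.00803) and IAPEY3_LTR from 1.21, 1.13 and 1.20 to 1.09, 1.09 and 1.07 (-0.11 ± 0.03, limma, adjusted p = 0.00797). In each of these the TKO libraries were all below the WT libraries. IAPEz-int had 2.66, 2.39 and 2.44 against 2.24, 2.20 and 2.71 in WT, which overlap (0.07 ± 0.10, limma, adjusted p = 0.624). On the spike-in scale IAPEY4_LTR was the only family called (-0.67 ± 0.22, limma, adjusted p = 0.0411), where 11.8% of all families were called. The IAP median there was -0.45 beside -0.44 over all families. IAPLTR1_Mm, IAPLTR1a_Mm, IAPLTR2_Mm and IAPEY3-int, with relative changes of 0.02, 0.04, -0.05 and 0.01, were not called. These counts were fragile: on the relative scale 6 families were lower divided by the mean copy and 23 divided by the median gene, while 0 families were called when the family median replaced the mean and 1 without WT replicate 1, and on the spike-in scale all 25 were called without TKO replicate 1 or without WT replicate 2, and 0 without any 1 of the other 4 libraries. Of all 1241 families 372 were lower divided by the mean copy and 914 divided by the median gene. Calls over all families in the fits without 1 library are not given here, so the 25 called there do not set IAP families apart.

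When lamins and LBR were both missing, most IAPEY and IAP1-MM entries were lower in naive cells, while IAPEz-int lay within the WT range. In naive QKO cells 15 of 25 families fell relative to other TEs (7 internal and 8 LTR entries) and 0 rose, where 79.2% of all families were called, 41.4% lower and 37.8% higher. The median change was -0.24, beside -0.02 over all families and -0.03 over other ERVK families. IAPEY3_LTR went from 1.30, 1.32 and 1.24 to 0.883, 0.920 and 0.914 (-0.46 ± 0.03, limma, adjusted p = 1.16e-10), IAP1-MM_I from 1.67, 1.60 and 1.58 to 1.12, 1.19 and 1.16 (-0.45 ± 0.04, limma, adjusted p = 2.43e-08) and IAPEY3-int from 1.25, 1.14 and 1.25 to 0.855, 0.930 and 0.888 (-0.41 ± 0.06, limma, adjusted p = 7.42e-06). None of these overlapped. IAPEy-int, whose values went from 2.01, 1.79 and 2.02 to 1.34, 1.50 and 1.47, and IAPEY5_LTR, from 0.987, 0.978 and 0.949 to 0.631, 0.736 and 0.714, did not overlap either.

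IAPEz-int had naive QKO values of 1.95, 1.98 and 2.10, all inside the WT range of 1.70 to 2.29 (0.01 ± 0.10, limma, adjusted p = 0.963). IAPLTR1_Mm stood at 0.13 ± 0.07 (limma, adjusted p = 0.0968), IAPLTR1a_Mm at 0.10 ± 0.08 (limma, adjusted p = 0.257) and IAPLTR2_Mm at -0.05 ± 0.07 (limma, adjusted p = 0.499). These positions hold for the relative scale only. Divided by the median gene, which puts the median change of all families at -0.70, all 25 families were lower, as were 1166 of all 1241. IAPEz-int then stood at -0.71. On the spike-in scale all 25 fell, as did 99.7% of all families (99.8% were called), with an IAP median of -1.92 beside -1.75.

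In QKO EpiLCs 7 of 25 families fell on the relative scale (1 internal and 6 LTR entries) and 0 rose, where 47.5% of all families were called and 26.3% were called lower. They were IAPEY4_LTR (2.17, 1.93 and 2.22 in WT, 1.77, 1.72 and 1.65 in QKO, -0.28 ± 0.07, limma, adjusted p = 0.00238), IAPEY5_LTR, IAPEY3_LTR, IAP1-MM_I, IAPEY2_LTR, IAPLTR2a2_Mm and IAPLTR4. IAPEY3_LTR went from 1.21, 1.13 and 1.20 to 1.05, 1.06 and 1.03 (-0.16 ± 0.03, limma, adjusted p = 0.000386). The median of the 25 changes was -0.08, beside -0.01 over all families, and IAPEz-int stood at -0.06 ± 0.10 (limma, adjusted p = 0.659) with libraries that overlap those of WT. IAPLTR1_Mm, IAPLTR1a_Mm, IAPLTR2_Mm and IAPEY3-int, at -0.04, -0.02, -0.12 and -0.06, were not called. Divided by the mean copy 13 families were lower (549 of all 1241) and divided by the median gene 24 (1076 of all 1241). With the family median in place of the mean 0 were called, and without WT replicate 3 the count was 4. On the spike-in scale all 25 families fell, again as nearly all families did (99.8% called), with a median of -1.14 beside -1.05.

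**Figure D3:**
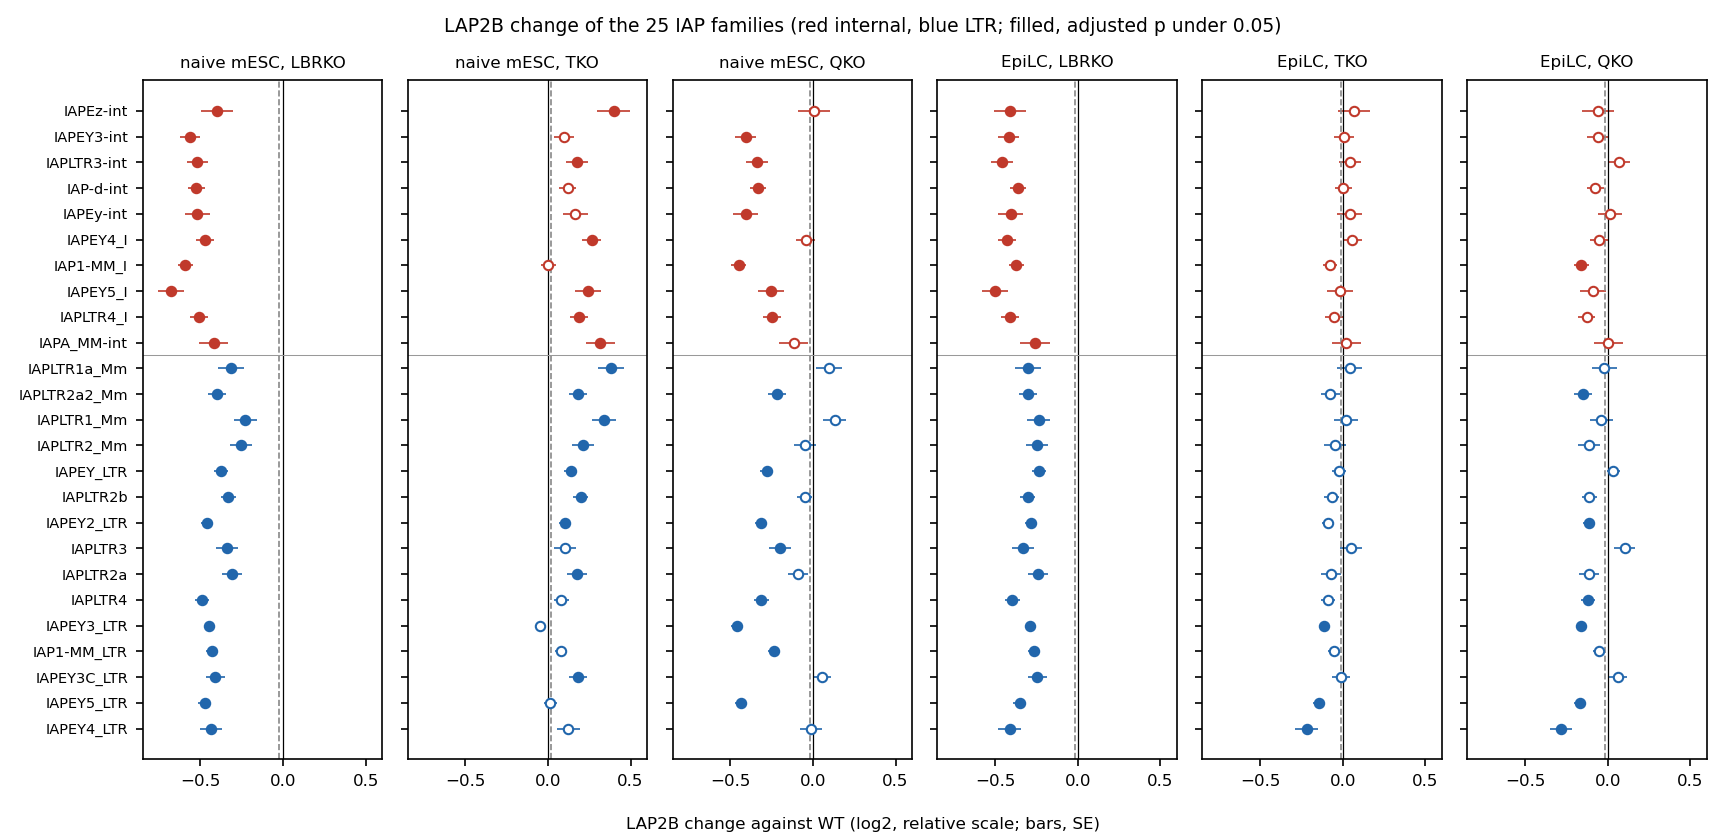
Change in LAP2B against WT (log2 of relative family means ± SE from the limma fit, 3 against 3 libraries) of the 25 IAP families in 6 comparisons, red for internal and blue for LTR entries, filled where the adjusted p was under 0.05, with a dashed line at the median of all families. All 25 points are filled and below the line in both LBRKO panels, 15 are filled above it in naive TKO, and 15 are filled below it in naive QKO.

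Set against WT IGG, the 25 families had a median LAP2B of -0.57 in naive LBRKO, 0.09 in naive TKO and -0.34 in naive QKO, with 25, 4 and 24 of 25 below 0. In EpiLCs the IAP medians were -0.45, -0.06 and -0.13 with 25, 20 and 21 of 25 below 0. Those over all families were -0.005, 0.001 and -0.002, with 52.7%, 48.7% and 51.8% below 0. Among L1 families 80.5% were below 0 in naive QKO cells and 81.2% in QKO EpiLCs. Standing below IGG in QKO cells was therefore not particular to IAP families. The background of the mutants themselves was not measured.

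Between stages few IAP families moved relative to other TEs. In WT LAP2B 3 of 25 families were called, where 26.8% of all families were. Divided by the median gene, which puts the median change of all families at -0.29, 23 of 25 were lower in EpiLCs, as were 1171 of all 1241. On the relative scale IAPEY4_I was higher in EpiLCs (1.75, 1.59 and 1.88 in naive cells, 1.88, 1.91 and 2.11 in EpiLCs, 0.17 ± 0.06, limma, adjusted p = 0.0362). IAPEY3_LTR (-0.12 ± 0.03, limma, adjusted p = 0.0123) and IAPEY_LTR (-0.12 ± 0.04, limma, adjusted p = 0.0371) were lower. IAPEY_LTR libraries overlapped between stages. Divided by the median gene IAPEY4_I stood at -0.13, so its direction depends on the scale. The count was 0 without naive WT replicate 2 or EpiLC WT replicate 2, 1 without naive WT replicate 1, and 0 with family medians. IAPEz-int stood at 0.24 ± 0.10 (limma, adjusted p = 0.0834), IAPLTR1a_Mm at 0.17, IAPLTR1_Mm at 0.10, IAPLTR2_Mm at 0.08 and IAPEY3-int at -0.05, none of which was called. limma and edgeR each called 0 of 25 families for LMNB1 and 0 of 25 for IGG, where limma called 0.886% and 0.161% of all families, and 0 and 1 of the 25 had an unadjusted p under 0.05.

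Whether the change of a knockout line against WT differed between the 2 stages was tested as the change in EpiLCs minus the change in naive cells. For LBRKO 4 families were called, all with a smaller fall in EpiLCs, where 25.9% of all families were called. For TKO 7 were called, all lower in EpiLCs relative to the naive effect (18.1% of all families called), with a median of -0.19 over the 25 beside -0.02 over all families. IAPLTR1a_Mm was among them at -0.34 (limma, adjusted p = 0.0390). For QKO 12 were called higher and 1 lower (52.9% of all families called), with a median of 0.16 beside -0.00. IAPEY3_LTR differed by 0.30 (limma, adjusted p = 1.90e-05) and IAP1-MM_I by 0.29 (limma, adjusted p = 0.000834), from falls of 0.46 and 0.45 in naive cells to falls of 0.16 in EpiLCs for both. Leaving out 1 library moved the LBRKO count to 1 (EpiLC WT replicate 2), 2 (naive LBRKO replicate 3) or 10 (naive LBRKO replicate 2) and the TKO count to between 2 and 12. Divided by the median gene 7 families were called for TKO, all higher, with IAPLTR1a_Mm at -0.04 and not among them. Of all 1241 families 901 were called higher for TKO on that scale.

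In LBRKO cells internal entries fell more than their LTRs in most IAP pairs by family means, though not by family medians. Of 32 pairs of other LTR retrotransposons, 20 were called lower in naive cells and 14 in EpiLCs. In 8 IAP pairs of an internal entry and the LTR of the same name (for IAPEz-int, which has no LTR of its name, IAPLTR1_Mm), the change of the internal entry relative to its LTR was tested among 40 such pairs of LTR retrotransposons. In naive LBRKO cells the internal entry fell more in 6 of 8, where 82.5% of the 40 pairs were called and 65% were called lower, and the IAP median of -0.15 was close to the -0.13 of all pairs. For IAPEz-int over IAPLTR1_Mm the log2 ratio was 0.88, 0.78 and 0.90 in WT and 0.64, 0.77 and 0.64 in LBRKO libraries, all 3 below WT (-0.17 ± 0.03, limma, adjusted p = 0.000205). IAPLTR3-int over IAPLTR3 changed by -0.18 ± 0.03 (limma, adjusted p = 1.61e-05) and IAPEY5_I over IAPEY5_LTR by -0.20 ± 0.07 (limma, adjusted p = 0.00837). The IAPEY4 and IAPLTR4 pairs, at -0.04 ± 0.09 and -0.02 ± 0.03, were not called.

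In LBRKO EpiLCs 5 of 8 pairs fell (62.5% of the 40 called, 47.5% lower, IAP median -0.13 beside -0.07). The IAPEz pair went from 0.97, 0.97 and 1.03 to 0.81, 0.81 and 0.84 (-0.17 ± 0.03, limma, adjusted p = 0.00033). In naive TKO cells 4 of 8 pairs rose and 0 fell (55% of the 40 called, IAP median 0.09 beside 0.03), with the largest change in IAPEY5, from 0.30, 0.29 and 0.30 to 0.50, 0.56 and 0.57 (0.23 ± 0.07, limma, adjusted p = 0.00803). The IAPEz pair was not among them (0.06 ± 0.03, limma, adjusted p = 0.166). In naive QKO cells 4 pairs fell, among them IAP1-MM (-0.21 ± 0.03, limma, adjusted p = 5.52e-06) and IAPEz (-0.13 ± 0.03, limma, adjusted p = 0.00241), and IAPEY5 rose (0.18 ± 0.07, limma, adjusted p = 0.0175), although it stood at -0.045 without the copies of highest IGG, where 77.5% of the 40 pairs were called, 47.5% lower and 30% higher. The count of 5 was 3 without QKO replicate 1, and the 4 of naive TKO was 2 without WT replicate 2. In EpiLCs the IAPEY4 pair rose in TKO (0.28 ± 0.09, limma, adjusted p = 0.0185, 32.5% of pairs called) and in QKO (0.23 ± 0.09, limma, adjusted p = 0.0415, 37.5% called), where IAP1-MM fell (-0.11 ± 0.03, limma, adjusted p = 0.014). Without EpiLC WT replicate 1 neither comparison had a call. With family medians the pairs called numbered 2 and 0 in naive LBRKO and LBRKO EpiLCs, 2 in naive QKO and 0 in the other 3 comparisons.

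**Figure D4:**
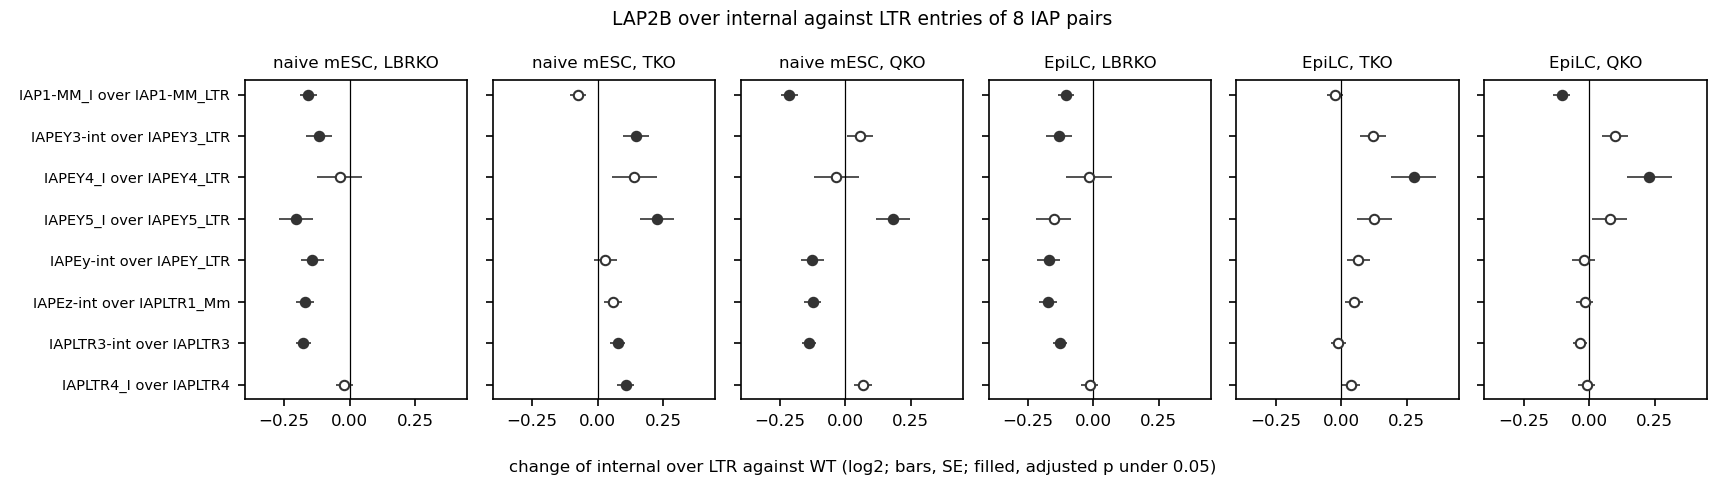
Change against WT of an internal entry over its LTR (log2 ± SE, limma) for 8 IAP pairs in 6 comparisons, filled where the adjusted p was under 0.05. The points lie below 0 in LBRKO cells, with 6 of 8 filled in naive cells and 5 of 8 in EpiLCs, and 4 of 8 are filled above 0 in naive TKO cells.

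Because 1 bin covers an LTR and what lies beside it, LTR copies were also split by whether the neighbouring row of the table was an IAP internal entry, a split added after the data were seen. The 8454 LTR copies beside an internal entry changed by -0.43 ± 0.12 in naive LBRKO cells and the 6614 others by -0.34 ± 0.04 (log2 ± SE of group means, 3 against 3 libraries, no test made). In naive TKO cells they changed by 0.31 ± 0.07 and 0.11 ± 0.02, and in naive QKO cells by -0.10 ± 0.08 and -0.14 ± 0.03. IAPLTR1a_Mm copies away from an internal entry (290 of 1922) had the same signs, at -0.23 ± 0.11 in naive LBRKO and 0.34 ± 0.05 in naive TKO cells.

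In LBRKO cells lower values were seen in many copies, but copies are not separate observations. Near-identical copies borrow signal from each other, so a spread over copies is partly built in. Of internal copies 25.4%, and of LTR copies 36.7%, had the same values as a neighbouring row in every library. In naive LBRKO cells 23.7% of IAP internal copies and 23.1% of IAP LTR copies had all 3 libraries below all 3 WT libraries on the relative scale, against 17.9% of all TE copies, and 1.11% and 3.96% had all 3 above, against 20.1% of all TE copies. The median copy changed by -0.46 among internal and -0.41 among LTR copies, beside -0.01 among all TE copies, and the middle 50% of internal copies ran from -0.80 to -0.13. The share of copies with all 3 libraries lower was highest in IAP1-MM_I (38.0%) and lowest in IAPLTR3 (13.0%). In LBRKO EpiLCs 24.0% of internal and 17.4% of LTR copies were lower in this sense, against 11.4% of all copies.

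In naive TKO cells 16.5% of internal copies (22.0% of IAPEz-int) and 13.7% of LTR copies had all 3 libraries above WT, near the 15% of all TE copies, while 3.00% and 4.58% had all 3 below, against 8.76%. Divided by the median gene, 13.3% of internal and 16.4% of LTR copies had all 3 below WT, against 23.7% of all copies. In naive QKO cells 14.8% of internal and 18.8% of LTR copies had all 3 below and 5.73% and 8.95% all 3 above, against 22.6% and 26% of all TE copies. In EpiLCs 5.20% and 7.86% were lower in TKO, against 7.99%, and 7.92% and 10.1% in QKO, against 10.3%.

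Among themselves, IAP copies had a more negative change against WT in naive LBRKO cells where WT LMNB1 over IGG was higher. Cut into 4 classes of their own by WT LMNB1 over IGG, internal copies changed by -0.37 ± 0.20 in class 1 and -0.66 ± 0.09 in class 4 in naive LBRKO cells, and LTR copies by -0.11 ± 0.17 and -0.59 ± 0.02. In naive QKO cells internal copies went from 0.14 to -0.52 and LTR copies from 0.54 to -0.64 between these classes, and in naive TKO cells internal copies from 0.43 to 0.13. For internal copies this order rested on the division by IGG: ranked by LMNB1 alone, which also ranks copies by the number of bins they touch, class 4 differed from class 1 by -0.049 in LBRKO, -0.032 in QKO and 0.053 in TKO naive cells.

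In LBRKO cells IAP copies changed by other amounts than TE copies at large in the same class of LMNB1 ratio. For this all TE copies were cut into common classes, a choice made after the data were seen. In naive LBRKO cells the mean LAP2B of all TE copies changed by 0.69 ± 0.15 in class 1, with the lowest WT LMNB1 over IGG, and by 0.41 ± 0.05, -0.11 ± 0.01 and -0.45 ± 0.07 in the next 3, so that copies poor in LMNB1 were higher and copies rich in it lower. IAP internal copies in the same classes changed by -0.36 ± 0.19, -0.44 ± 0.17, -0.64 ± 0.11 and -0.70 ± 0.03, and IAP LTR copies by -0.09 ± 0.17, -0.30 ± 0.12, -0.49 ± 0.06 and -0.62 ± 0.03. Both kinds of entry had the most negative change in class 4, and in class 1 neither was higher while all TE copies were. These are values of 3 against 3 libraries with no test, and the classes come from WT LMNB1 and IGG libraries, not from LAP2B.

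In the other naive mutants the changes of internal copies in class 1 were above 0. In this class, IAP internal copies changed by 0.44 ± 0.13 in naive TKO cells, beside 0.76 ± 0.14 for all TE copies. In naive QKO cells they changed by 0.17 ± 0.13, beside 1.59 ± 0.14. In class 4 they changed by -0.04 ± 0.03 in TKO and -0.86 ± 0.04 in QKO, beside -0.27 ± 0.07 and -0.83 ± 0.05 for all TE copies. The 1593 IAPEz-int copies of class 1 changed by -0.39 in naive LBRKO cells and the 82 of class 4 by -0.58 ± 0.12.

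In EpiLCs the pattern for LBRKO was flatter. Internal copies changed by -0.40 ± 0.09 in class 1 and -0.49 ± 0.07 in class 4 and LTR copies by -0.24 ± 0.09 and -0.37 ± 0.05, beside 0.15 ± 0.07 and -0.23 ± 0.05 for all TE copies. In TKO EpiLCs internal copies changed by 0.13 ± 0.10 in class 1 and -0.18 ± 0.07 in class 4.

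**Figure D5:**
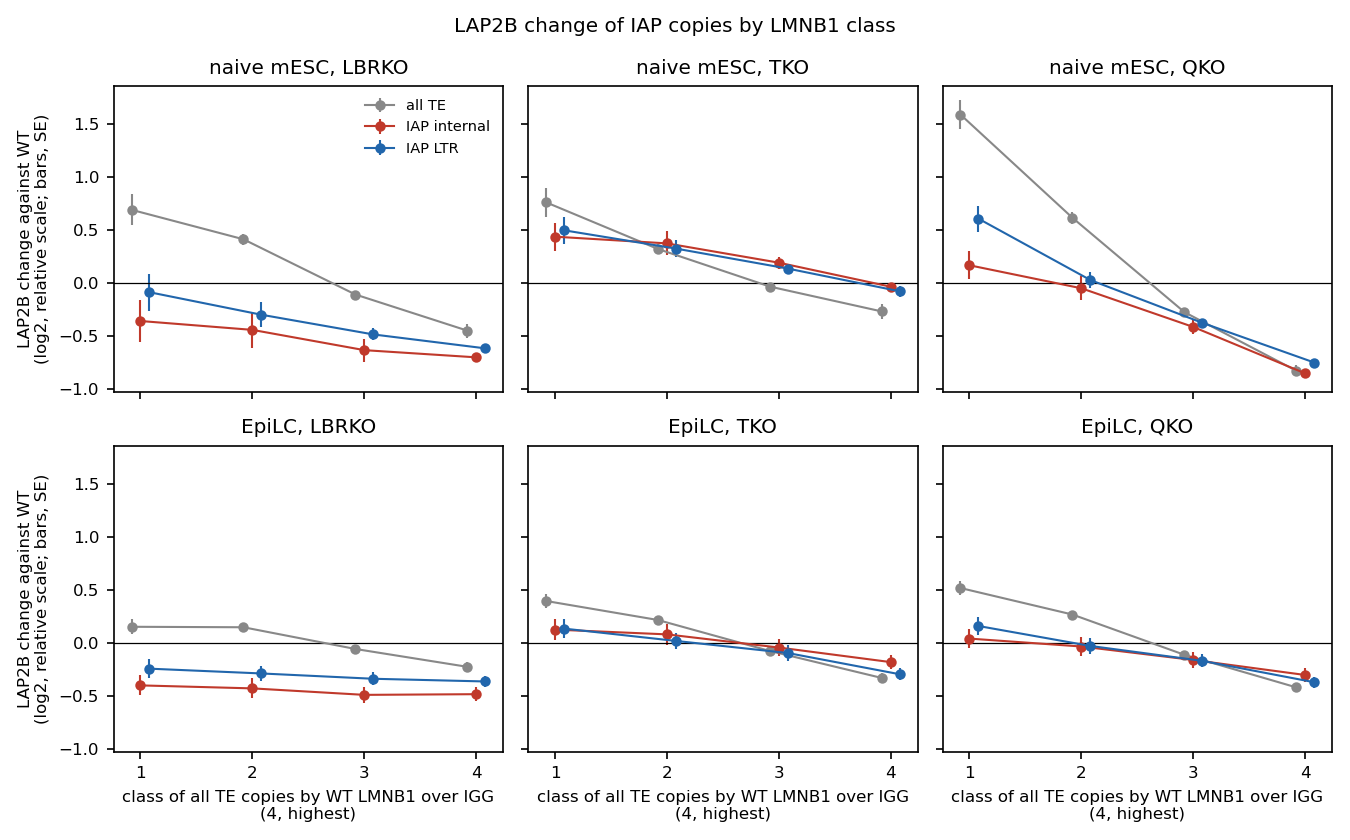
Change in LAP2B against WT (log2 of relative means ± SE, 3 against 3 libraries) in 4 classes of equal size of all TE copies ranked by WT LMNB1 over IGG at the same stage, gray for all TE copies, red for IAP internal and blue for IAP LTR copies. In naive LBRKO cells all TE copies go from 0.69 to -0.45 while IAP internal copies stay below 0 throughout, from -0.36 to -0.70.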

How the data were processed

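The members and lists were chosen with earlier results of these data known. Per the study's methods and the processing notes of the submitters, the authors aligned read pairs with Bowtie2 (2.3.5.1) to mm39 and to yeast (sacCer3), kept properly paired primary alignments with SAMtools (1.10), removed duplicates, and computed RPKM coverage with deepTools, multiplied by a factor that falls with the yeast read count. A pair that aligns equally well to several copies was therefore placed at 1 of them, so single IAP copies borrow signal from near-identical ones. The deposited TE tables hold this signal per copy, one column per library. The authors' methods name wider bins for TEs, but the values fit sums over 1 kb bins. Deposited columns of modified z scores and of the authors' own comparisons were not used.

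From these, the mean over copies was taken per family and library, on the spike-in scale and divided by the library's median family. log2(mean + 0.1 of the median family) was fitted with limma (3.58.1, R 4.3.3) in 1 model over 24 LAP2B libraries, and over 6 libraries each for LMNB1 and IGG, with Benjamini-Hochberg adjustment over 1241 families. Within a library 99.9997% to 99.9999% of values were whole multiples of 1 step (within 0.05), so reads were recovered and tested with edgeR (4.0.16) as an alternative. Both fits were run on simulated data for the naive LBRKO comparison over 1241 families. On log2 family values with normal noise, limma recovered 96% of families changed by 0.5 log2 and 89% of those changed by 0.25, with 5.61% of calls false. On simulated counts edgeR recovered 96% and 82%, with 1.66% of calls false. Noise was drawn independently for each family, so these rates do not cover related families that vary together between libraries.

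IAPEz-int, IAPLTR1_Mm, IAPLTR1a_Mm, IAPLTR2_Mm, IAPEY3-int and IAPEY3_LTR were described in every relative-scale LAP2B comparison of a mutant with WT and of the WT stages. In each LAP2B comparison the 2 largest rises and 2 largest falls among those called on the relative scale were described too. Others named were chosen after their values were seen. Pairs were matched by name. Neighbours were taken from the row order of the table, read as genomic order (r of log2 LMNB1 was 0.72 between rows 1 apart and -0.04 between rows 100000 apart). Alternatives were another pseudocount, the family median, filters, other scalings, separate fits, a replicate block and leaving out each library. No counting interval is given for single copies, and how counting error compares with the spread between libraries was not tested. Stage could not be checked against markers, as no expression was measured here.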

Additional observations from a re-analysis of the deposited data

Results flagged for a closer look

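These IAP families were singled out because the LAP2B change of a knockout line against WT differed between EpiLCs and naive cells. The difference itself was tested. Values are the EpiLC change minus the naive change in log2 on the relative scale, with limma p-values adjusted over all 1241 families. For LBRKO the difference was 0.22 for IAP1-MM_I (adjusted p = 0.0161), 0.16 for IAP1-MM_LTR (adjusted p = 0.0208), 0.18 for IAPEY2_LTR (adjusted p = 0.0172) and 0.16 for IAPEY3_LTR (adjusted p = 0.0126), each a smaller fall in EpiLCs.

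For TKO, LTRs of the IAPEz group and related LTRs were lower in EpiLCs than the naive effect: IAPLTR1_Mm by -0.32 (adjusted p = 0.0325), IAPLTR1a_Mm by -0.34 (adjusted p = 0.0390), IAPLTR2a2_Mm by -0.25 (adjusted p = 0.0299) and IAPLTR2b by -0.27 (adjusted p = 0.00960). IAPEY2_LTR (-0.19, adjusted p = 0.0152), IAPEY4_LTR (-0.34, adjusted p = 0.0207) and IAPLTR4_I (-0.24, adjusted p = 0.0362) were lower too. These directions hold relative to the median family. Divided by the median gene, which puts the median difference of all families at 0.27, 7 families were called, all higher. On that scale IAPLTR1_Mm, IAPLTR1a_Mm and IAPEY4_LTR stood at -0.02, -0.04 and -0.03. With family medians 0 were called. Of all 1241 families 901 were called higher divided by the median gene.

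For QKO, 12 families were called with a positive difference, all of which fell in naive cells. In EpiLCs 5 of the 12 fell (IAP1-MM_I, IAPEY2_LTR, IAPEY3_LTR, IAPEY5_LTR and IAPLTR4), and the others were not called, with IAPLTR3 at 0.10, IAPLTR3-int at 0.07, IAPEY_LTR at 0.03 and IAPEy-int at 0.01 against WT. Among internal entries the differences called were 0.42 for IAPEy-int (adjusted p = 0.00295), 0.41 for IAPLTR3-int (adjusted p = 0.00155), 0.35 for IAPEY3-int (adjusted p = 0.00295), 0.29 for IAP1-MM_I (adjusted p = 0.000834) and 0.26 for IAP-d-int (adjusted p = 0.00481). Among LTR entries they were 0.31 for IAPEY_LTR (adjusted p = 0.000246), 0.30 for IAPLTR3 (adjusted p = 0.0114), 0.30 for IAPEY3_LTR (adjusted p = 1.90e-05), 0.27 for IAPEY5_LTR (adjusted p = 0.000576), 0.20 for IAPEY2_LTR (adjusted p = 0.00271), 0.19 for IAPLTR4 (adjusted p = 0.0143) and 0.18 for IAP1-MM_LTR (adjusted p = 0.00503). Of the 25 differences 8 were negative, and IAPEY4_LTR was the only family called in that direction, at -0.27 (adjusted p = 0.0232). Divided by the median gene instead of the median family, which puts the median difference of all families at 0.42, IAPEY4_LTR stood at 0.17.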

How the results depend on the processing

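The counts of 25 of 25 IAP families lower in LBRKO cells on the relative scale, and of 25 of 25 lower on the spike-in scale in naive TKO and in QKO at both stages, stayed within 1.5 times and kept their direction under every alternative run. Other counts moved as follows, and unless the construction of an alternative is named as the reason, the cause was not tested.

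Other scalings moved the relative counts most, because dividing by the median gene puts the median change of all families at -0.36, -0.46 and -0.70 in naive LBRKO, TKO and QKO cells and at -0.07, -0.19 and -0.27 in EpiLCs. Of all 1241 families 1075, 1177 and 1166 were then called lower in naive cells. In EpiLCs 276, 914 and 1076 were, and 1171 were in the WT stage comparison. The naive TKO count of 15 families higher became 6 divided by the mean copy (4 higher and 2 lower), and 23 lower divided by the median gene. The naive QKO count of 15 became 23 and 25, the EpiLC TKO count of 3 became 6 and 23, and the EpiLC QKO count of 7 became 13 and 24, by mean copy and median gene in turn. The WT stage count became 23 and the IGG stage count 1 by median gene. Of the stage differences, the LBRKO count of 4 became 8 and 25, the TKO count of 7 lower became 2 and then 7 higher, and the QKO count of 13 became 24 by median gene. Of all 1241 families 408 and 1000 were then called for LBRKO, 203 and 909 for TKO, and 1115 for QKO by median gene. In naive QKO cells 915 of all families were lower by mean copy, and 24 were called between IGG stages by median gene.
Single families changed sign divided by the median gene: in naive TKO IAPEY3-int (-0.39), IAPEz-int (-0.11), IAPLTR1_Mm (-0.15), IAPLTR1a_Mm (-0.10) and IAPLTR2_Mm (-0.28), in naive QKO IAPEz-int (-0.71, and -0.25 by mean copy), IAPLTR1_Mm (-0.56) and IAPLTR1a_Mm (-0.59), and in EpiLC TKO IAPEY3-int (-0.18), IAPLTR1_Mm (-0.17) and IAPLTR1a_Mm (-0.14). Between WT stages IAPEY4_I (-0.13), IAPLTR1_Mm (-0.19), IAPLTR1a_Mm (-0.13) and IAPLTR2_Mm (-0.22) did so, and among stage differences IAPEz-int (0.28) and IAPLTR1_Mm (0.28) for LBRKO, IAPEY3-int (0.21) and IAPEY3_LTR (0.24) for TKO, and IAPEY4_LTR (0.17), IAPEz-int (0.38), IAPLTR1_Mm (0.26), IAPLTR1a_Mm (0.31) and IAPLTR2_Mm (0.37) for QKO.

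With the family median in place of the mean, which rests on few reads per copy, counts were 0 in EpiLC TKO, EpiLC QKO, the WT stage comparison and the stage differences of LBRKO and TKO on the relative scale, 5 in the stage difference of QKO and 2 in EpiLC TKO on the spike-in scale. Pairs called were then 2 in naive LBRKO, 0 in naive TKO, 2 in naive QKO and 0 in LBRKO, TKO and QKO EpiLCs, with changes of sign for IAPEY3 (0.017) and IAPLTR3 (0.012) in naive LBRKO and IAPLTR3 (-0.075) in naive TKO. The IAP median of LAP2B over IGG in naive WT cells was then -0.0078 (-0.09 with means). Without the copies of highest IGG, which takes out 1% of copies and so mostly long ones (17.8% of IAP internal copies), pairs called were 2 in naive TKO and 1 in QKO EpiLCs, IAPEY5 in naive QKO stood at -0.045, and the EpiLC TKO spike-in count was 2. Another pseudocount gave 3 for that count and 11 for the stage difference of TKO, and leaving out the families of lowest level gave 8 for that of QKO.

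The replicate numbers did not pair the samples: deviations of same-numbered libraries correlated at -0.41 to 0.20, and no genotype had all 3 over 0.1. With a replicate block the spike-in count was 9 in naive LBRKO and 0 in EpiLC TKO, and no other count moved by over 1.5 times. Fits on the 6 libraries of a comparison gave 0 for both and for the WT stage comparison, and 2 pairs in naive TKO. Applying the factor to recovered reads, which undoes the division by a library's own reads, gave 4 families in naive LBRKO and 0 in EpiLC TKO.

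Leaving out 1 library gave 0 to 19 families on the spike-in scale in naive LBRKO and 0 to 25 in EpiLC TKO. Calls over all families in these fits are not given here. On the relative scale the ranges were 9 to 15 in naive TKO, 1 to 4 in EpiLC TKO, 4 to 9 in EpiLC QKO, 0 to 4 in the WT stage comparison, and 1 to 10 for LBRKO and 2 to 12 for TKO in the stage differences. Without naive WT replicate 3 the WT stage calls were 3 higher and 1 lower, against 1 and 2. Pairs called ranged from 2 to 4 in naive TKO, 3 to 6 in naive QKO and 0 to 2 in TKO and QKO EpiLCs. 

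The change of LMNB1 class 4 minus class 1 of internal copies moved to -0.049 (naive LBRKO), 0.053 (naive TKO), -0.032 (naive QKO) and -0.13 (EpiLC TKO) when ranked by LMNB1 alone, and to -0.47, -1.02, -0.31 and -0.34 in naive TKO, naive QKO, EpiLC TKO and EpiLC QKO in classes of all TE copies. For LTR copies ranking by LMNB1 alone gave -0.64 in naive QKO, -0.24 in EpiLC TKO and -0.34 in EpiLC QKO. Depth limits single copies, with a median of 8 to 29 reads, more than family means. edgeR on recovered reads, added after the data were seen, called 25, 14 and 15 families in naive LBRKO, TKO and QKO cells. In EpiLCs it called 25, 3 and 8. Its calls over all families are not given here.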
